A study of Mus musculus with 6 samples.

Results

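The genes described here build and run the DNA replication fork, from the complexes that mark replication origins to the polymerases, the sliding clamp and the factors that repackage new DNA. They were chosen by gene symbol, 53 genes in all out of 49997 symbols in the count table, and were assigned to 13 subcomplexes by their textbook roles. RNA-seq libraries of small pre-B cells, sorted by flow cytometry from mouse bone marrow, were compared between 3 libraries of wild-type mice (WT) and 3 libraries of mice with the ΔrsCBE genotype. All mice were C57BL/6 and 6 to 12 weeks old. The prefix Δ denotes a deletion, and the interval it removes is not given in the sources used here, nor is any transgene or Cre driver. The labels do not say whether each library came from its own mouse, so p-values measure the spread between these libraries, which may be technical in part.

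Replication begins when the origin recognition complex (ORC), Cdc6 and Cdt1 load the MCM2-7 helicase onto DNA in G1, a step that geminin (Gmnn) blocks outside G1. The kinase Cdc7-Dbf4 and the loading of Cdc45 and GINS then turn the helicase on, polymerase alpha-primase lays the primers, and polymerases epsilon and delta extend the leading and lagging strands while held by the clamp PCNA. Most of these genes are transcribed under E2F control as cells prepare for S phase. In the bone marrow large pre-B cells divide rapidly, whereas small pre-B cells have mostly left the cycle and rearrange their light chain genes.

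Promoter sequences are shown for members whose transcripts are followed below, because E2F sites are the textbook link between these genes. RefSeq promoters on GRCm38.p6, reaching from 250 bases before to 50 after each annotated start, were at hand for 44 of the 53 genes. They were searched on both strands for 4 words of the E2F site (TTTCGCGC, TTTGGCGC, TTTCCCGC and TTTGCCGC, which can overlap each other), for the cell cycle homology region (CHR, TTTGAA), which marks many mitotic genes, and for the CCAAT box (CCAAT). An E2F word stood in 16 of the 44 genes (36.4%), against 2.61% of all 27025 genes with a promoter and 5.4% of the tested genes. The CCAAT word stood in 23 of the 44 (52.3%), against 41.1% of all genes and 43.5% of the tested genes. The CHR word stood in 7 (15.9%), against 20.2% of all genes and 14.9% of the tested genes. The stretches printed lie before the RefSeq start, 5′ to 3′ on the strand of the gene. The searched word is in capitals with 30 bases on either side, or up to the start.
Pola1, E2F, chrX:93632256-93632323, minus strand: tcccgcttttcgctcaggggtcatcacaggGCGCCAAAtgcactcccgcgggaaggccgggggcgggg
Mcm5, E2F, chr8:75109326-75109397, plus strand: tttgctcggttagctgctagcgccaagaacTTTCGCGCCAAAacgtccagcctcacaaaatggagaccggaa
Mcm6, E2F, chr1:128359715-128359845, minus strand: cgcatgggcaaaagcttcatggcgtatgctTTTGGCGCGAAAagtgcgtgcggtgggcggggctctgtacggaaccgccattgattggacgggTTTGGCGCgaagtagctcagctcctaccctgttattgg
Cdc6, E2F, chr11:98907983-98908050, plus strand: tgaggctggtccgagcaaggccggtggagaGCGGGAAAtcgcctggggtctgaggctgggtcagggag
Orc3, E2F, chr4:34614946-34615013, minus strand: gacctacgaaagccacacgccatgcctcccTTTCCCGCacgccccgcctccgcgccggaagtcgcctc
Mcm2, CHR, chr6:88898815-88898880, minus strand: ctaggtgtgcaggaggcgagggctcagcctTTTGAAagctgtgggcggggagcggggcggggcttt
Mcm10, CCAAT, chr2:5012792-5012919, minus strand: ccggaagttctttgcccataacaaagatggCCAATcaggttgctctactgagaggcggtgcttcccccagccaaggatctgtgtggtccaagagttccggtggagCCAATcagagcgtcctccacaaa
In Mcm5 and Mcm6 words on opposite strands overlap, and Mcm6 carries another word closer to the start. For Cdc6 the GENCODE M21 annotation starts the gene at 98907801, so the printed stretch lies inside the gene by that annotation. A match is a run of letters and not a measured binding site.

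**Figure D1:**
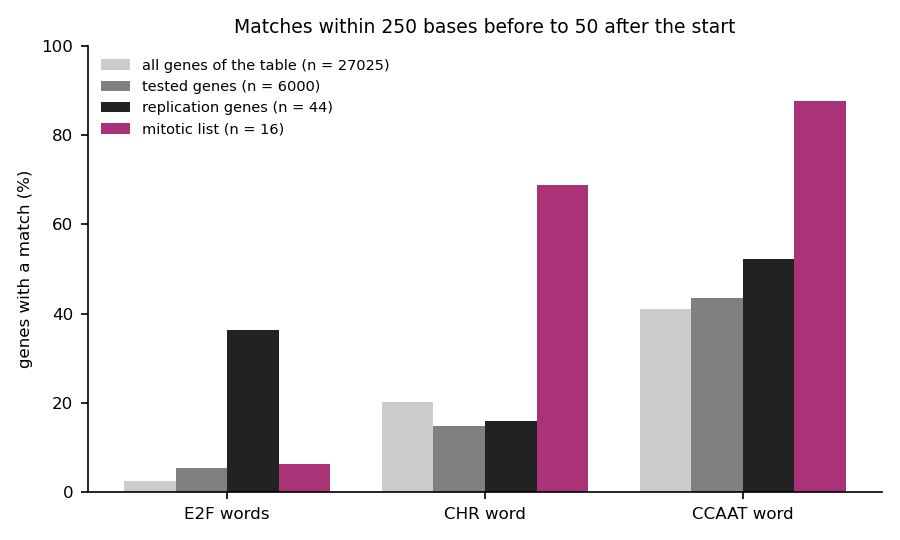
Share of genes (%) with at least 1 match of the E2F words, the CHR word or the CCAAT word within 250 bases before to 50 after a start, in bars for all genes of the promoter table, the tested genes, the replication genes and a list of mitotic genes. E2F words stood in 36.4% of the replication genes and 6.25% of the mitotic list, and the CHR word in 15.9% and 68.8%.

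Total counts ranged from 428106 to 1300805 per library, and a floor of 3 counts equals 2.38 to 7.36 CPM (counts scaled to the library size of the fit). By the expression of Xist and of 4 Y-linked genes, ΔrsCBE replicates 2 and 3 had a female pattern and the other 4 libraries a male pattern, so sex and genotype are partly confounded and values without the female libraries are given below. Of 10 pre-B markers all were tested and 0 passed the threshold. Their summed level was 11276 to 13089 CPM in WT and 12363 to 13030 CPM in ΔrsCBE. Of 10 markers of pro-B and large pre-B cells 4 were tested and 0 passed. Their sum, most of it from Sox4 and including Il7r, which is also on the pre-B list, was 2514 to 2665 CPM in WT and 2416 to 3415 CPM in ΔrsCBE, highest in ΔrsCBE replicates 2 and 3. Igll1, Vpreb1, Dntt and Kit, which define those stages, had 10, 7, 7 and 6 counts over all 6 libraries, and Vpreb2 was at 0. The 4 tested markers of this list all had log2 fold changes (ΔrsCBE over WT) above 0, as did 4034 of all 7792 tested genes. Lef1 (0.67, groups without overlap) and Sox4 (0.28, overlapping) were higher at an unadjusted p-value under 0.05 by edgeR, as were 329 of all tested genes. The mature B list had 0 of 5 tested genes past the threshold, with Ighd at 0, and the plasma cell list 0 of 2, with Tnfrsf17 at 0. The 8 erythroid markers had 1 count between them, the 8 T and NK markers summed to at most 9.81 CPM in any library, and the myeloid list lay at 53.1 to 83.4 CPM in WT and 55.7 to 69.5 CPM in ΔrsCBE, with S100a8 and Elane at 0. Most of the myeloid sum was Itgam. Lyz2 had 0 counts in each WT library and 2, 4 and 2 in ΔrsCBE, and S100a9 had 0 in each WT library and 2, 1 and 3 in ΔrsCBE, all near or under the 3-count floor and not tested. The part of these cells in the results was not tested.

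A sum of 60 or more counts over the 6 libraries was reached by 43 of the 53 replication genes. Just inside were Pole4 and Rfc5 with 63 counts each, and just outside were Orc5 with 58 and Chaf1b with 56. The 10 genes below that sum were Orc1, Orc5, Orc6, Gmnn, Gins1, Pold2, Pole2, Rfc4, Rpa3 and Chaf1b, with 7 to 58 counts. The count filter of the test also left 43 genes, 42 of those above the sum and Chaf1b, while Rfc5 was not tested. At 34 of the 43 tested genes all 6 libraries reached the filter's level of 12.1 CPM, 3 genes reached it in all WT libraries but in fewer than 3 ΔrsCBE libraries, and 2 genes the reverse.

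The summed share of counts from the replication genes was smaller in each ΔrsCBE library than in any WT library, a description with no test, while 1 gene passed the test on its own. Together the 53 genes took 0.275% (95% Wilson interval 0.263% to 0.289%), 0.244% (0.230% to 0.260%) and 0.255% (0.247% to 0.264%) of all counts in the WT libraries, in replicate order. The ΔrsCBE shares were 0.199% (0.189% to 0.208%), 0.219% (0.210% to 0.228%) and 0.177% (0.168% to 0.186%). The groups did not overlap, and ΔrsCBE replicate 2 lay nearest to WT. In CPM the sum went from 2660 ± 112 for WT to 2028 ± 222 for ΔrsCBE (SD, n = 3), and the ratio was 0.762. In these bulk samples fewer cycling cells and less RNA per cell cannot be told apart.

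Of the 43 tested genes, 38 (88.4%) had a log2 fold change (ΔrsCBE over WT, given below with its standard error, SE) under 0, against 48.2% of the 7792 genes tested, and the median was -0.38 against 0.01 for all genes. A single gene, Pola1, passed an adjusted p-value of 0.05 in edgeR's quasi-likelihood test, 2.33% of those tested. Across all tested genes 1.49% passed and were lower and 0.205% passed and were higher (1.69% in either direction), so the share of replication genes called was near the background. At an unadjusted p-value under 0.05, 18 of 43 replication genes (41.9%) were lower and 0 were higher, where 6.02% of all genes were lower. For 16 of the 43 (37.2%) every ΔrsCBE library lay below every WT library, against 8.92% of all genes. The 95% interval of the log2 fold change lay wholly below 0 at 18 genes and included 0 at the other 25. Its median half-width was 0.52, and at 29 genes the interval excluded a decrease of 1 on the log2 scale, which is a halving.

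The count of 1 depended on single libraries. Without ΔrsCBE replicate 2 it was 6 (Chaf1a, Mcm10, Mcm2, Mcm4, Pola1 and Pole), and without WT replicate 3, ΔrsCBE replicate 1 or ΔrsCBE replicate 3 it was 0. Among the ΔrsCBE libraries, replicate 2 had the highest value at 25 of the 43 genes and replicate 3 at 5, while replicate 3 had the lowest at 22. With the male-pattern libraries alone, 3 WT against ΔrsCBE replicate 1, 34 of 43 genes had a log2 fold change below 0, the median was -0.46 and 0 genes passed the threshold; the lone library is there assumed to vary like the WT ones.

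**Figure D2:**
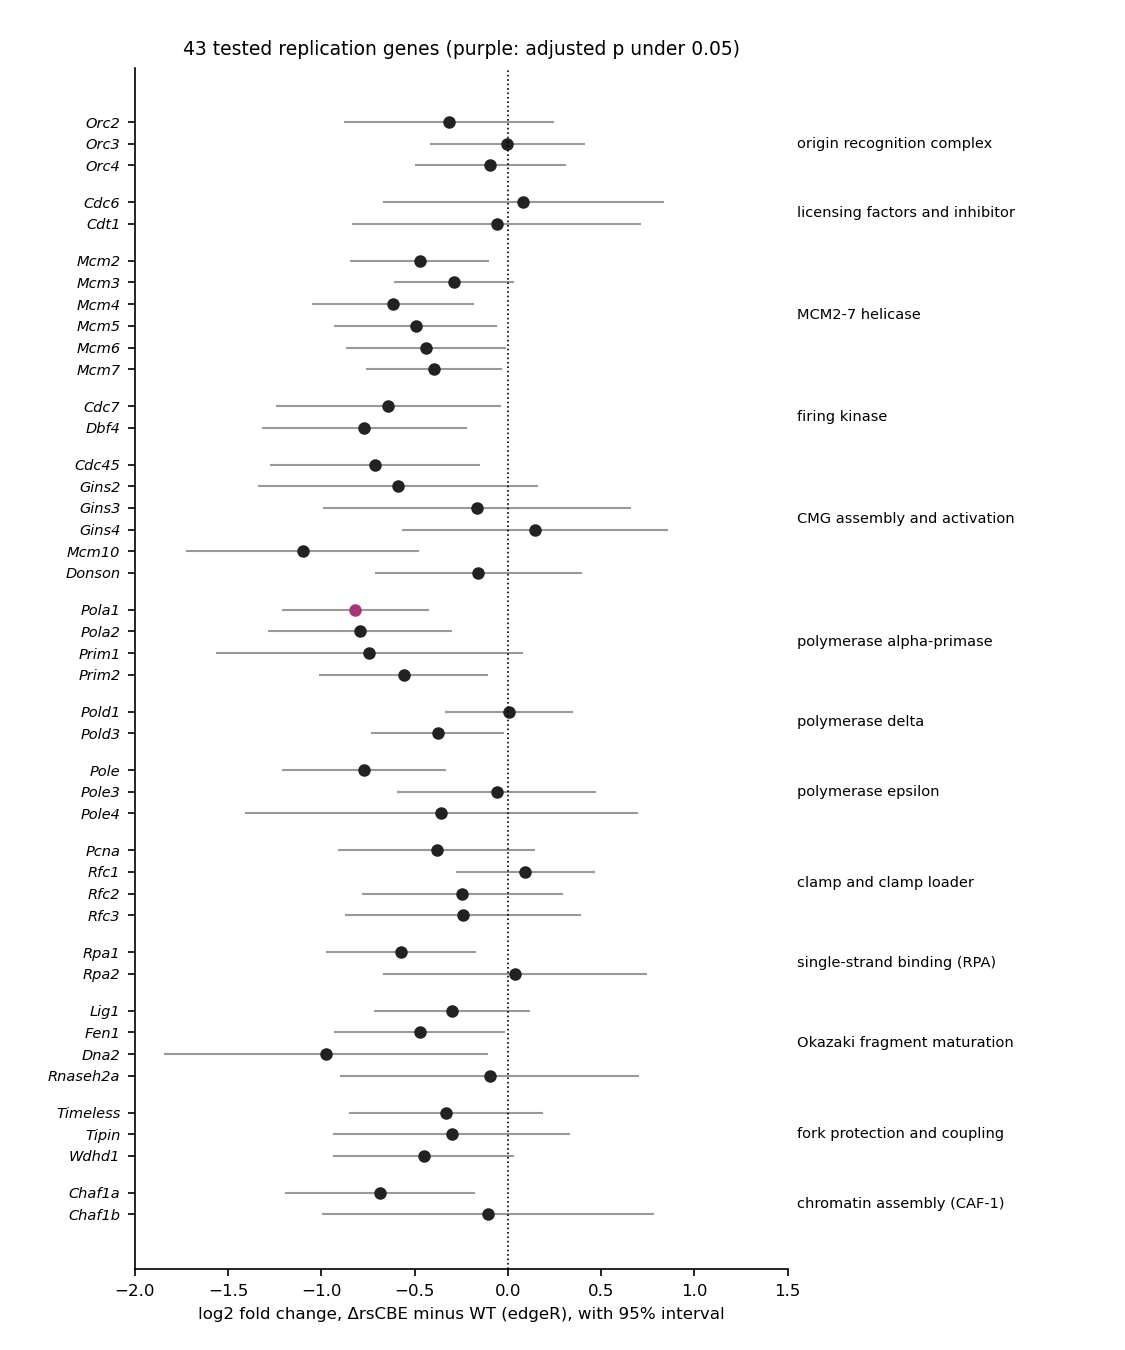
Log2 fold change (ΔrsCBE minus WT, edgeR, 3 libraries per genotype) of the 43 tested replication genes with 95% intervals, grouped by subcomplex. Purple marks Pola1, the gene past the adjusted p-value of 0.05; 38 of the 43 points lie left of 0.

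No origin recognition or licensing gene passed the threshold. ORC binds origins, and 3 of its 6 subunits were tested. Orc3 had 68.1, 76.0 and 65.7 CPM in the WT libraries, in replicate order here and below, and 79.9, 57.9 and 69.5 CPM in ΔrsCBE, and the groups overlapped. Its 95% interval, -0.41 to 0.41, bounds the change that these libraries allow in either direction. Orc4 had an interval of -0.49 to 0.30. Orc2, the subunit with the smallest p-value, had 30.8, 44.1 and 34.8 CPM in WT and 30.3, 26.9 and 29.05 CPM in ΔrsCBE, for a log2 fold change of -0.32 (SE 0.27, adjusted p-value 0.772 by edgeR).

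Cdc6, the ATPase that joins ORC to load the helicase, had 35.7, 22.1 and 14.3 CPM in WT and 26.6, 28.9 and 15.2 CPM in ΔrsCBE. WT replicate 1 was high and the groups overlapped throughout. The log2 fold change of 0.08 (SE 0.36, adjusted p-value 0.976 by edgeR) turned to -0.33 without WT replicate 3, -0.09 without ΔrsCBE replicate 2 and -0.02 with a replicate block, so it has no settled direction. Cdt1, its partner in loading, had a log2 fold change of -0.06 and an interval of -0.83 to 0.71. Both Cdc6 and Orc3 carry an E2F word in the stretches printed above. Gmnn, the inhibitor of Cdt1, was below the count filter, with 10, 4 and 14 counts in WT and 5, 1 and 2 in ΔrsCBE. Its CPM values did not overlap, and in a fit without the filter the log2 fold change was -1.93 (SE 0.62, adjusted p-value 0.136 by edgeR).

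The 6 subunits of the MCM2-7 helicase all had log2 fold changes below 0, from -0.62 to -0.29 with a median of -0.46, and none passed the threshold. An unadjusted p-value under 0.05 was reached by 5 of them, all but Mcm3. Mcm4 had the smallest p-value, with 144, 115 and 97.4 CPM in WT and 71.4, 100.2 and 54.3 CPM in ΔrsCBE. ΔrsCBE replicate 2 lay above WT replicate 3, so the groups overlapped, and the log2 fold change was -0.62 (SE 0.21, adjusted p-value 0.182 by edgeR; 0.0129 without ΔrsCBE replicate 2). Mcm2 had 172, 172 and 139 CPM in WT and 108, 147 and 84.6 CPM in ΔrsCBE, again with ΔrsCBE replicate 2 inside the WT range. Mcm5 and Mcm6 had log2 fold changes of -0.50 (SE 0.21) and -0.44 (SE 0.21). Mcm3 and Mcm7 were the subunits whose groups did not overlap.

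The summed level of the helicase subunits was 735 ± 70.6 CPM for WT and 535 ± 105 CPM for ΔrsCBE (SD, n = 3). Per kilobase of merged exons (GENCODE M21) the WT levels ran from Mcm3 at 37.0 ± 2.58 CPM per kb through Mcm4 (33.2 ± 6.61), Mcm7 (27.6 ± 1.67), Mcm5 (24.7 ± 5.07) and Mcm2 (23.1 ± 2.69) to Mcm6 (20.5 ± 5.48, SD, n = 3). Each neighbouring pair in that order differed by less than the sum of the SDs, so neighbours in the order are not separated beyond their spread. The 6 proteins form 1 ring, and by this length their transcripts lay within a factor of 2 of each other per kilobase. Merged exons pool all annotated isoforms, so the order and the factor depend on the annotation. For Mcm7 they span 4426 bases, whereas its longest annotated transcript has 2962. Mcm7 is uncertain, since the pseudogene Gm5487, 97.7% identical over 2157 bases, had 199 counts where Mcm7 had 518, and since Cops6 and Ap4m1 overlap it on the opposite strand. Gm5487 itself had a log2 fold change of -0.48, close to the -0.40 of Mcm7.

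Of 7 genes of helicase assembly and activation 6 were tested and none passed the threshold in edgeR. Their median log2 fold change was -0.38, 2 reached an unadjusted p-value under 0.05 (Mcm10 and Cdc45, both lower), and their values ran from -1.10 to 0.14. Mcm10, which helps to open the loaded helicase, had the lowest log2 fold change of all tested members. Its values were 51.9, 41.7 and 49.9 CPM in WT and 18.2, 35.1 and 12.6 CPM in ΔrsCBE, so all 3 ΔrsCBE libraries lay below WT and replicate 2 lay nearest to it. The log2 fold change was -1.10 (SE 0.30, adjusted p-value 0.0627 by edgeR), just short of the threshold, and it ranged from -1.64 without ΔrsCBE replicate 2 to -0.84 without ΔrsCBE replicate 3. GENCODE M21 places Mcm10 on the minus strand of chromosome 2 (GRCm38), from 4989714 to 5012791.

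Cdc45, part of the active helicase, had 45.4, 51.5 and 54.6 CPM in WT and 36.3, 39.3 and 16.4 CPM in ΔrsCBE, for a log2 fold change of -0.71 (SE 0.27, adjusted p-value 0.283 by edgeR). The groups did not overlap. Ufd1 lies across it on the opposite strand with 536 counts, against 199 for Cdc45. The GINS subunits, which complete the active helicase, had intervals that overlapped: Gins2, Gins3 and Gins4 had log2 fold changes of -0.59, -0.17 and 0.14, each with an interval that included 0. Gse1 lies across Gins2 on the opposite strand with 1668 counts, against 87 for Gins2. Donson, a factor of helicase assembly, had -0.16 and an interval of -0.71 to 0.39, and Son, on the opposite strand, had 6296 counts.

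Both subunits of the firing kinase were lower in every ΔrsCBE library than in any WT library. Dbf4, the activating subunit, had 50.3, 51.5 and 49.1 CPM in WT and 37.5, 32.0 and 17.7 CPM in ΔrsCBE. The WT values lay close together and the ΔrsCBE values were spread, with replicate 3 lowest. Its log2 fold change was -0.77 (SE 0.26, adjusted p-value 0.195 by edgeR), and that of the catalytic subunit Cdc7 was -0.64 (SE 0.29). For Dbf4 the value ranged from -0.98 without ΔrsCBE replicate 1 to -0.53 without ΔrsCBE replicate 3. With the male-pattern libraries alone it was -0.41. The sum of both subunits stood at 58.2%, 74.6% and 47.0% of the WT mean in ΔrsCBE replicates 1 to 3.

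Polymerase alpha-primase, which starts every new strand with a short primer, held the gene past the threshold. Pola1, the catalytic subunit (on the minus strand of chromosome X, 93304767 to 93632155), had 92.5, 110.3 and 92.7 CPM in WT and 49.6, 56.8 and 58.1 CPM in ΔrsCBE. All ΔrsCBE values lay far below the lowest WT value, and the male-pattern ΔrsCBE library was the lowest of them. Pola1 fell from 98.5 ± 10.3 to 54.9 ± 4.57 CPM (SD, n = 3), a log2 fold change of -0.82 (SE 0.19, adjusted p-value 0.0173 by edgeR). The call was lost, at adjusted p-values of 0.0524 to 0.0844, without WT replicate 2, WT replicate 3, ΔrsCBE replicate 1 or ΔrsCBE replicate 3, and also with the DESeq2 Wald test (0.0736) and among the male-pattern libraries (0.0765). Across those fits the log2 fold change stayed between -0.96 and -0.75. Gm14780, on the opposite strand, had 6 counts in all.

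The other subunits of the complex did not pass the threshold. Pola2, the accessory subunit, had 50.3, 46.6 and 71.3 CPM in WT and 31.5, 38.2 and 31.6 CPM in ΔrsCBE, for a log2 fold change of -0.79 (SE 0.24, adjusted p-value 0.103 by edgeR). Prim2, the large primase subunit, had 58.4, 61.3 and 58.6 CPM in WT and 37.5, 44.4 and 37.9 CPM in ΔrsCBE, with -0.56 (SE 0.22). In neither gene did the groups overlap. Prim1, the primase catalytic subunit, had -0.74, but its few counts (95 in all) gave an interval of -1.56 to 0.07. The complex as a whole stood at 54.1%, 68.6% and 59.1% of its WT mean in ΔrsCBE replicates 1 to 3.

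**Figure D3:**
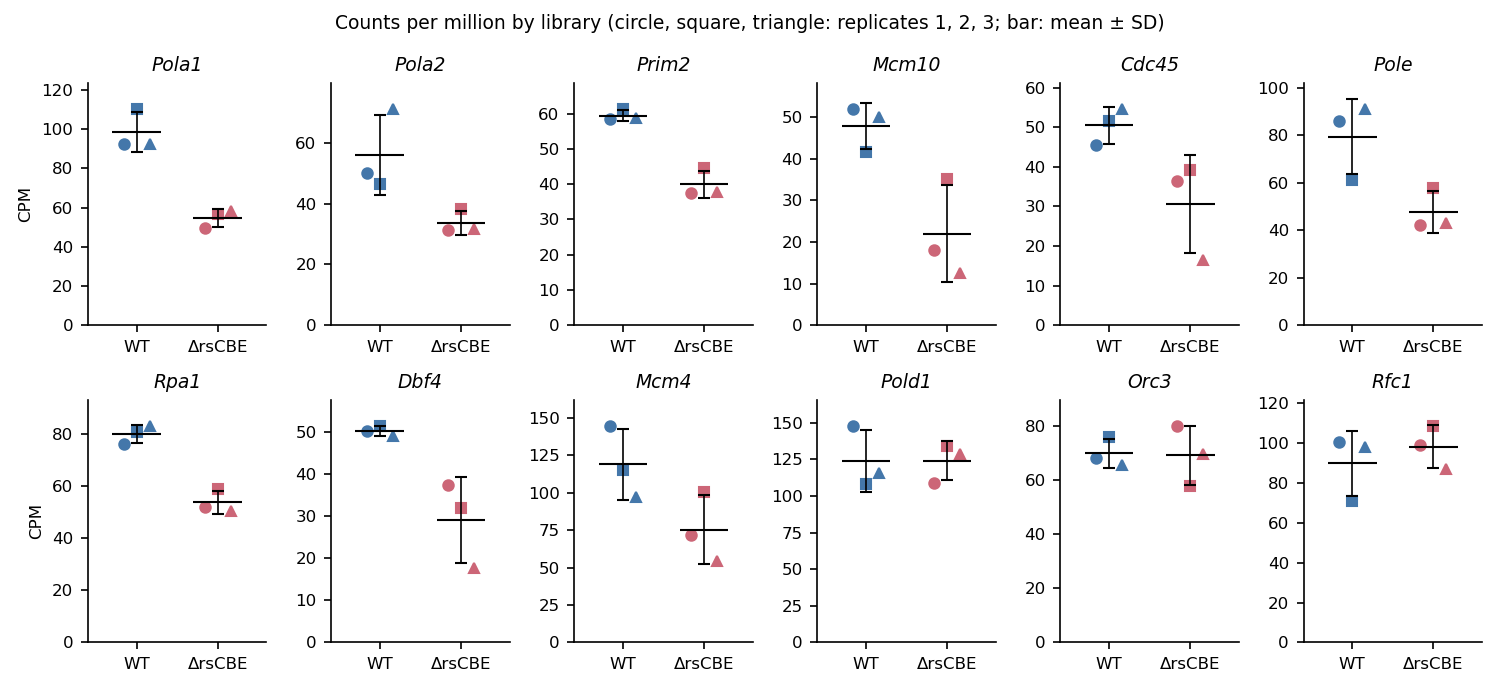
CPM in each library for 12 replication genes, with mean ± SD (n = 3 per genotype); circles, squares and triangles are replicates 1, 2 and 3. Pola1, Pola2, Prim2, Mcm10, Cdc45, Pole, Rpa1 and Dbf4 have no overlap between genotypes, whereas Mcm4, Pold1, Orc3 and Rfc1 overlap.

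No subunit of the elongating polymerases passed the threshold. Pole, the leading-strand catalytic subunit, had 86.0, 61.3 and 91.1 CPM in WT and 42.4, 57.9 and 42.9 CPM in ΔrsCBE, for a log2 fold change of -0.77 (SE 0.21, adjusted p-value 0.0627 by edgeR). The groups came close at WT replicate 2 and ΔrsCBE replicate 2 without overlapping, and Pole passed at 0.0177 without ΔrsCBE replicate 2 and at 0.0421 without WT replicate 2. Pold1, its lagging-strand counterpart, had 148, 108 and 116 CPM in WT and 109, 134 and 129 CPM in ΔrsCBE, with a log2 fold change of 0.00 and an interval of -0.33 to 0.34. The difference between these log2 fold changes was not tested. Pold3, an accessory subunit of polymerase delta, had 110.3, 105.4 and 105.3 CPM in WT and 90.8, 82.7 and 73.3 CPM in ΔrsCBE, for a log2 fold change of -0.38 (SE 0.17, adjusted p-value 0.428 by edgeR).

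The small epsilon subunits Pole3 and Pole4, which bind histones, had log2 fold changes of -0.06 and -0.36, with intervals that included 0. Pole4 had 1, 8 and 25 counts in WT, and WT replicate 1 was far below the other WT libraries.

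No clamp or clamp loader gene passed the threshold. Pcna, the ring that tethers polymerases, had 40.6, 44.1 and 41.2 CPM in WT and 30.3, 38.2 and 26.5 CPM in ΔrsCBE. The groups did not overlap, and the log2 fold change was -0.38 (SE 0.25, adjusted p-value 0.667 by edgeR). Its count is uncertain: the pseudogene Pcna-ps2, 99.2% identical over 781 bases, held 350 counts against 178 for Pcna, and how reads were divided between them is not given in the sources used here. With both counts added, an alternative chosen after the values were seen, the log2 fold change was -0.49 (SE 0.18, adjusted p-value 0.244 by edgeR).

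Rfc1, the large subunit of the loader that opens the clamp, had 100.6, 71.1 and 98.2 CPM in WT and 99.3, 109 and 87.1 CPM in ΔrsCBE, for a log2 fold change of 0.09 with an interval of -0.27 to 0.46. Rfc2 and Rfc3, small subunits of the loader, both had -0.24 with intervals that included 0. Rfc5 had 11, 5 and 15 counts in WT and 12, 11 and 9 in ΔrsCBE and was not tested.

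Rpa1, the large subunit of the complex that coats single-stranded DNA, had 76.3, 80.9 and 83.1 CPM in WT and 52.05, 58.9 and 50.5 CPM in ΔrsCBE. The values lay close together within each genotype and apart between them, with a log2 fold change of -0.57 (SE 0.19, adjusted p-value 0.181 by edgeR). Rpa2, the middle subunit, had 0.04 and a wide interval, -0.66 to 0.74, and Rpa3 had 7 counts in all.

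Okazaki fragment genes join the short pieces of the lagging strand. Fen1, the flap nuclease, had 63.3, 63.8 and 52.3 CPM in WT and 42.4, 46.5 and 36.6 CPM in ΔrsCBE, and Dna2, the nuclease for long flaps, had 17.8, 14.7 and 19.0 CPM in WT and 9.68, 5.17 and 12.6 CPM in ΔrsCBE. Neither overlapped between genotypes. The log2 fold changes were -0.47 for Fen1 and -0.97 for Dna2, the latter with 64 counts in all (SE 0.42, adjusted p-value 0.391 by edgeR). Lig1, the ligase of the lagging strand, had -0.30, with ΔrsCBE replicate 2 at 101 CPM inside the WT range of 89.5 to 103.8 CPM. Rnaseh2a, a nuclease that removes RNA from DNA, had -0.10 and an interval of -0.89 to 0.70.

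Timeless and Tipin, which hold the fork together when it stalls, and Wdhd1, which ties polymerase alpha to the helicase, had log2 fold changes of -0.33, -0.30 and -0.45. Wdhd1 had 66.5, 71.1 and 58.6 CPM in WT and 33.9, 63.0 and 41.7 CPM in ΔrsCBE, and SE 0.23 (adjusted p-value 0.536 by edgeR). In these genes ΔrsCBE replicates 1 and 3 lay below the WT range, whereas replicate 2 lay inside it for Timeless and Wdhd1 and above it for Tipin. The large subunit of the histone loader CAF-1, Chaf1a, had 94.1, 56.4 and 93.4 CPM in WT and 55.7, 69.2 and 30.3 CPM in ΔrsCBE, for a log2 fold change of -0.69 (SE 0.24, adjusted p-value 0.228 by edgeR; 0.0316 without ΔrsCBE replicate 2). The groups overlapped, with WT replicate 2 low, and Ubxn6 lies across Chaf1a on the opposite strand with 147 counts. Chaf1b, the middle subunit, had -0.10 and an interval of -0.99 to 0.78.

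By subcomplex, 7 of 13 summed levels did not overlap between genotypes, all of them lower in ΔrsCBE: the helicase, its activators, the firing kinase, polymerase alpha-primase, polymerase epsilon, RPA and Okazaki maturation. The lowest ΔrsCBE means were those of the firing kinase at 59.9% and polymerase alpha-primase at 60.6% of WT, and the highest were ORC at 92.2% and the clamp with its loader at 91.99%. ΔrsCBE replicate 2 had the highest sum of its genotype in 11 of the 13 groups, as the plot by subcomplex shows. These sums weight abundant genes and include genes below the count filter. No share over all genes was computed for such sums, and among single tested genes 8.92% were lower without overlap. In RPA and polymerase epsilon the only members without overlap were Rpa1 and Pole.

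**Figure D4:**
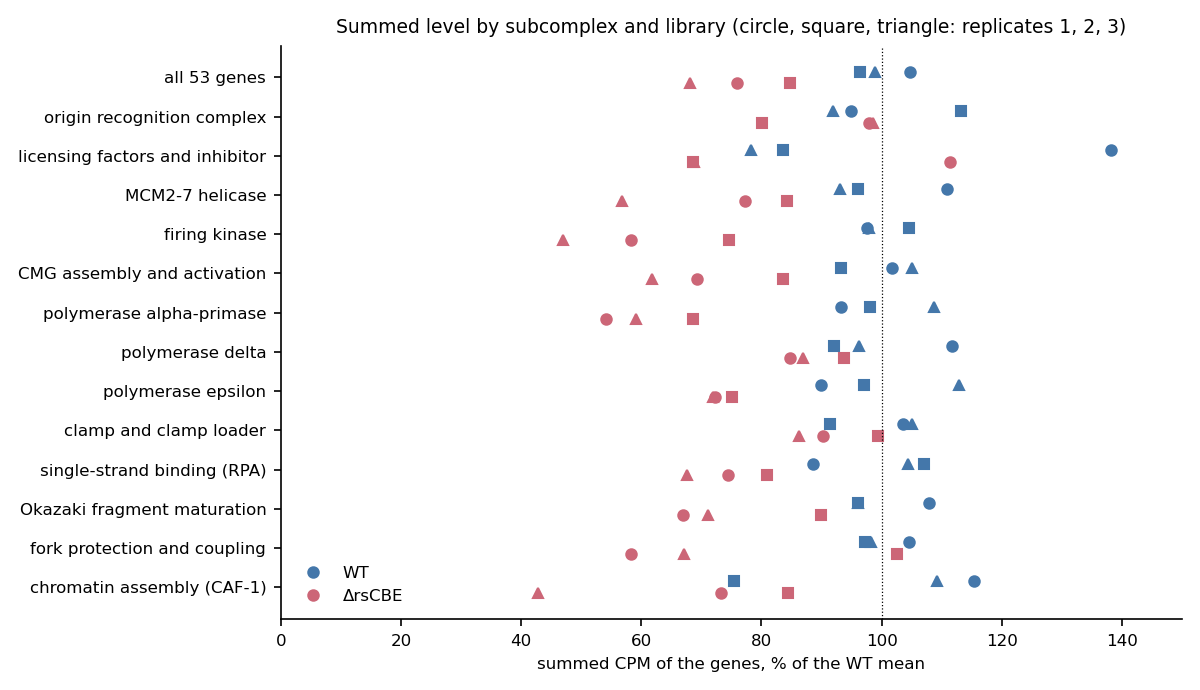
Summed CPM of the genes of each subcomplex in each library, as a percentage of the WT mean of that subcomplex; circles, squares and triangles are replicates 1, 2 and 3. In 7 of 13 subcomplexes all ΔrsCBE points lie left of all WT points, and for ORC the ΔrsCBE mean was 92.2% of WT.

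Fold changes were also set beside the promoter words. Of the tested members with a promoter, the 14 with an E2F word had a median log2 fold change of -0.29, and the 22 without one had -0.46. The 6 with the CHR word (Mcm2, Cdc7, Dbf4, Cdc45, Fen1 and Gins3) ran from -0.77 to -0.17 with a median of -0.56. The 30 without it, Pola1 among them, ran from -1.10 to 0.09 with a median of -0.33. These medians are descriptions with no test. The mitotic list differed in its words, with E2F words in 1 of 16 genes and the CHR word in 11 of 16.

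Other genes of the replication pathway were counted in the same way. A separate list of 48 regulators, checkpoint and chromatin factors of the fork had 38 tested genes. Of these, 3 passed the threshold and were lower and 0 were higher. Across all 7792 tested genes 1.49% passed and were lower and 0.205% passed and were higher. The log2 fold change was below 0 at 33 of the 38 (86.8%), against 48.2% of all tested genes, and the median was -0.30. Rbbp4, a histone chaperone that is the small subunit of CAF-1, had 341, 385 and 348 CPM in WT and 226, 214 and 216 CPM in ΔrsCBE. It fell by 0.70 on the log2 scale (SE 0.12, adjusted p-value 0.00111 by edgeR), and it passed in each fit without 1 library. Uhrf1, which carries DNA methylation across the fork, had 273, 211 and 199 CPM in WT and 132, 173 and 110 CPM in ΔrsCBE. Its log2 fold change was -0.70 (SE 0.17, adjusted p-value 0.0214 by edgeR). The Uhrf1 call was lost in edgeR with male-pattern libraries only and with sex as a covariate (adjusted p-value 0.120). It was also lost without WT replicate 1, WT replicate 2, ΔrsCBE replicate 1 or ΔrsCBE replicate 3. Pif1, a helicase, had 35.7, 31.9 and 23.8 CPM in WT and 8.47, 15.5 and 3.79 CPM in ΔrsCBE, for a log2 fold change of -1.60 (SE 0.40, adjusted p-value 0.0324 by edgeR). The Pif1 call was lost with the DESeq2 Wald test (adjusted p-value 0.0898), in edgeR with male-pattern libraries only (0.126) and with sex as a covariate (0.214), and in each fit without 1 library other than that without ΔrsCBE replicate 2. In both fits that account for sex the count was again 3, but of these only Rbbp4 was shared, beside Chtf18 and Ticrr. Without ΔrsCBE replicate 2 the count of 3 became 8, and it was 1 without WT replicate 1, WT replicate 2, ΔrsCBE replicate 1 or ΔrsCBE replicate 3, and 2 without WT replicate 3.

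Mitotic genes are given beside them because they mark the next phase of the same cycle. Of 20 mitotic genes 18 were tested, and 16 passed the threshold and were lower, against 1.49% of all tested genes. The median log2 fold change of the mitotic genes was -1.21, with a range from -1.66 to -0.52. Mki67, the standard marker of cycling cells, had 3472, 3759 and 3476 CPM in WT and 1528, 2418 and 1521 CPM in ΔrsCBE. Its log2 fold change was -0.97 (SE 0.16, adjusted p-value 0.0100 by edgeR). The Mki67 call was lost in edgeR without WT replicate 2 (adjusted p-value 0.0913) or ΔrsCBE replicate 1 (0.0755), and with sex as a covariate. It held in the other fits without 1 library. At 34 of the 43 replication genes the 95% interval lay wholly above the mitotic median of -1.21, taken as a fixed value without its own error. The summed mitotic level was 6563, 7388 and 6965 CPM in WT and 2809, 4373 and 2712 CPM in ΔrsCBE, so here too ΔrsCBE replicate 2 lay nearest to WT. No test of the difference between the lists was made, and the part that mitotic level plays in the replication values was not tested.

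**Figure D5:**
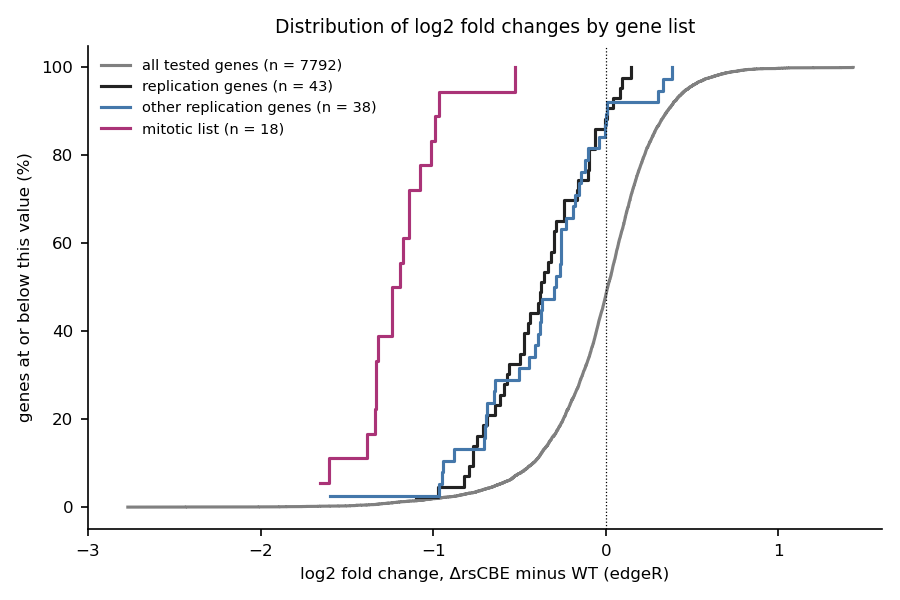
Cumulative share of genes (%) against log2 fold change (ΔrsCBE minus WT, edgeR) for all 7792 tested genes, the 43 replication genes, 38 other replication genes and 18 mitotic genes. The medians are 0.01, -0.38, -0.30 and -1.21.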

How the data were processed

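The deposited table holds whole-number read counts per gene symbol, 1 column per library; per the submitters' processing notes, which give names without roles, Trim Galore 0.6.10, STAR 2.7.11, HTSeq and DESeq2 were used with build mm10. The annotation, strand setting and handling of reads with several matches are not given in the sources used here. At 18 of the 43 tested members a gene overlaps on the opposite strand. Genes were kept by filterByExpr (minimum count 10), which left 7792, and were tested with edgeR 4.0.16 in R 4.3.3 (TMM scaling, robust glmQLFit, glmQLFTest, genotype as sole factor). P-values were adjusted by Benjamini-Hochberg over all tested genes, with 0.05 as threshold. Standard errors come from the quasi-likelihood F statistic, and CPM uses the TMM-scaled counts of the tested genes. Wilson intervals and the 3-count floor cover counting error only.

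Members and lists were chosen with earlier results of these data known. By the naming rule, values in every library are given for each member past the threshold and for the member with the smallest p-value of a subcomplex without one; other per-library values, and the members in the plot by library, were chosen after values were seen. From the other replication list the genes past the threshold are named, and from the mitotic list Mki67. The fit was checked on simulated data. That check drew counts with the same dispersion (relative spread) for all genes and without the sex imbalance of these libraries, so it does not cover those features. Alternatives covered scaling, test (DESeq2 1.42.0), filter, threshold, replicate block, sex and leaving out each library. Near-identical copies were sought with blastn in GENCODE M21 transcripts (at least 95% identity over 200 bases).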

Additional observations from a re-analysis of the deposited data

How the results depend on the processing

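The median log2 fold change of the 43 tested replication genes stayed below 0 under all 14 alternatives, between -0.51 (without ΔrsCBE replicate 2) and -0.30 (without ΔrsCBE replicate 3). The count of replication genes past the threshold, 1 in the reported fit, was 0 with the DESeq2 Wald test, 0 with the sex covariate and 0 with male-pattern libraries only. It was 3 without a count filter, 3 when genes needed 1 CPM in at least 3 libraries, and 3 at an adjusted p-value threshold of 0.1 (Mcm10, Pola1 and Pole each time), and 0 to 6 when 1 library was left out. The count over all genes, 132, was 87 with the sex covariate and 55 to 186 when 1 library was left out, and that of the other replication genes, 3, was 1 to 8. With no female WT library, the sex covariate leaves the genotype effect to ΔrsCBE replicate 1. The cause of these shifts was not tested.

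With the replicate block 1 replication gene passed the threshold, and 136 of all genes. Deviations from the group mean in libraries of the same number had correlations across genes of 0.013, 0.020 and 0.0091. Libraries of different number had -0.047 to 0.034. With few libraries and low counts, these values cannot tell whether libraries of the same number shared a batch. Cdc6 changed sign, from 0.08 to -0.025 with the block, to -0.33 without WT replicate 3 and to -0.09 without ΔrsCBE replicate 2, within a leave-one-out range of -0.33 to 0.51. Of 239 values of 17 named genes under alternatives, 203 kept direction and side of the threshold, 24 lost it, 9 passed it and 3 changed sign. At totals of 428106 to 1300805 counts, depth limits the 10 genes with 7 to 58 counts, of which 0 passed the threshold in the edgeR fit without a count filter (Gmnn, at an unadjusted p-value of 0.00197, came closest to it among those named).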
